A study of Homo sapiens with 4 samples.

Results

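The expressed solute carrier transporters were the genes of the SLC series, membrane proteins named by a family number and a member number, that reached a mean log2 value of 7 or more over the 4 arrays of the study. Members were chosen by this level and by name: the rule took probe sets (the groups of short probes that together read a transcript) whose annotation gave a single symbol of this form, and left out SLC2A1, SLC3A2 and SLC7A11. It gave 195 probe sets for 139 genes, of 313 measured genes with symbols of this form apart from those 3, and of 19775 genes in all. The form is SLC, a number, the letter A and a number, so SLC symbols with another letter were not taken. The level is a description only. The carriers nearest above it were SLC6A17 (7.02), SLC12A8 (7.03) and SLC25A30 (7.05), and those nearest below were SLC67A1 (6.99), SLC22A4 (6.97) and SLC66A3 (6.95).

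Total RNA came from CaSki, an established human papillomavirus-positive line of cervical squamous carcinoma, carrying lentivirus for either GFP, the control, or ZNF750, a zinc finger transcription factor found in squamous epithelia. Each group had 2 arrays (Affymetrix HG-U133 Plus 2.0), called biological duplicates, and the p-values measure only the spread between these arrays, as the sources used here do not say how the cultures were made. All cells were grown in DMEM, and the labels give its serum content as 0%. The sources used here do not say whether the cells were pools or clones or when after transduction they were taken. The stated aim of the study was to find genes under the control of ZNF750 in squamous carcinoma.

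The brightest ZNF750 probe set lay near the lowest values of the arrays, at 2.13 and 2.37 with GFP and at 2.23 and 2.29 in the other group, a difference of 0.0037 ± 0.12, so the introduced gene was not seen by it and these arrays are called ZNF750-labelled. Of 8 genes on an epithelial list, not all particular to squamous cells, 6 were measured, among them KRT5, KRT14, EPCAM and CDKN2A. All 6 had means of 10.97 or more. The others, TP63 and KRT17, had no probe set with a single symbol. The leukocyte and endothelial markers had means of 6.06 or less, and of 7 fibroblast markers only COL1A1 (8.36) reached 7; 0 of these 14 genes passed the test between the groups. Across the 139 carriers the Pearson correlation between arrays, which is across genes and not over independent replicates, was 0.997 within each group and 0.977 to 0.983 between groups. For ACTB, the gap between the 3′ and 5′ control probe sets, which follows RNA integrity, was 3.03 and 2.81 with GFP and 3.76 and 3.35 in the ZNF750-labelled arrays, a shift of 0.64. Of the 6 measured genes on the epithelial list 3 rose, KRT14 by 1.10, KRT5 by 0.24 and EPCAM by 0.18, and CDKN2A fell by 0.29. The summed linear level of these 6 genes was 14.41 to 14.43 (log2) with GFP and 14.75 to 14.78 in the other group. These shifts lay beside every result below, and their part in them was not tested. In RNA from whole cultures, fewer cells that express a gene and less RNA per cell cannot be told apart.

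Solute carriers move nutrients, ions, metals and metabolites across the plasma membrane and across the membranes of organelles. Most are driven by the gradients of sodium, protons or the substrate itself. The SLC39 (ZIP) proteins bring zinc and related metals into the cytosol and the SLC30 (ZnT) proteins remove zinc from it. The SLC25 proteins mostly carry metabolites across the inner mitochondrial membrane. In stratified epithelia, amino acid and glucose carriers supply dividing basal cells, and zinc carriers are needed for normal epidermis.

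The zinc carriers held the largest fall of all the members, and the DNA before the start sites of 4 of them is shown because zinc itself acts on some such genes through the metal response element. The sequences are RefSeq promoter windows of GRCh38.p14, given from 250 bases before the annotated start to the base before it. Capitals mark matches, on either strand, to 4 motifs: the metal response element bound by MTF1 (TGCACNC or TGCGCNC), the antioxidant response element (TGACNNNGC), the C/EBP-ATF element of amino acid stress (TGATGNAA) and the E-box (CACGTG).
SLC39A10 (chr2:195656708-195656957, plus strand): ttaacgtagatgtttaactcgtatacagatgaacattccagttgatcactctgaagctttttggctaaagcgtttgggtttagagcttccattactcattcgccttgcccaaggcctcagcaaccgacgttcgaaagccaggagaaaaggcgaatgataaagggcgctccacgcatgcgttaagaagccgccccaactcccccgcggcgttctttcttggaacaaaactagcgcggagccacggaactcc
SLC39A11 (chr17:73092689-73092938, minus strand): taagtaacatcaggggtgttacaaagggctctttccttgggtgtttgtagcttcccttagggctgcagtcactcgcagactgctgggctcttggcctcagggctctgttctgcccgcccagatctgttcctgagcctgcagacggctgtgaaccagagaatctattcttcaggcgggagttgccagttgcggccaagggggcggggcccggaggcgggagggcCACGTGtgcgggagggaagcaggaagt
SLC39A3 (chr19:2740077-2740326, minus strand): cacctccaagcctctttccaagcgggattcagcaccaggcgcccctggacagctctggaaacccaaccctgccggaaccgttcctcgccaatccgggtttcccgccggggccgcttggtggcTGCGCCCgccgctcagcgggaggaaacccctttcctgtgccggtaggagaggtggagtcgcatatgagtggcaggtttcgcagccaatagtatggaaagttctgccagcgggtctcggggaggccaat
SLC30A1 (chr1:211579162-211579411, minus strand): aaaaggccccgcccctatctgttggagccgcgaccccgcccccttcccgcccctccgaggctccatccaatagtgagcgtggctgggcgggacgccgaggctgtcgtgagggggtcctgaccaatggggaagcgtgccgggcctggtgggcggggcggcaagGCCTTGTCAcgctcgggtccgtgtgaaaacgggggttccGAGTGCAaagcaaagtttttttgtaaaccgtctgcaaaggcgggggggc
SLC39A10, an importer that fell, had 0 matches in this stretch. SLC39A11, which also fell, had an E-box match starting 27 bases before its start. SLC39A3, which rose, had a metal response element match at 128 bases. The zinc exporter SLC30A1 had a metal response element match at 49 bases and an antioxidant response element match at 88 bases, both on the other strand. The capitals overlap for no pair of motifs in these stretches. These 4 genes were picked as the largest fall, the importer that rose, another importer that fell and an exporter that did not pass. They cannot show whether a motif goes with a direction.

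Over windows of 300 bases, which run 50 bases past the start, 118 of the 139 members matched a promoter in the RefSeq table. The metal response element was in 6 of 16 zinc carriers (37.5%), 38 of 118 members (32.2%), 40.2% of all genes with a mean of 7 or more and 29.3% of all 27303 promoters. It was in 8 of 27 members that fell (29.6%). The antioxidant response element was in 7 of 16 zinc carriers (43.8%), 21.2% of members, 16.1% of genes with a mean of 7 or more and 13.6% of all promoters. The E-box was in 12.7% of members, 10.9% of genes with a mean of 7 or more and 7.44% of all promoters. The C/EBP-ATF element was in 6 of 118 members (5.08%), 1.65% of genes with a mean of 7 or more and 3.67% of all promoters. These are counts of matching letters and not binding sites.

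Of the 139 carriers, 10 rose and 34 fell in the ZNF750-labelled arrays, and 95 did not pass (limma, Benjamini-Hochberg adjusted p under 0.05 over all genes). All differences below are ZNF750-labelled minus GFP in log2 units, with limma's standard error (n = 2 arrays per group). The largest fall was 1.64-fold, in SLC39A10, and the largest rise 1.58-fold, in SLC25A16. Of all genes 18% passed in either direction, and of the 8908 genes with a mean of 7 or more 32.6% did. The share that rose, 7.19%, stands beside 7.79% of all genes and 12% of those with a mean of 7 or more. The share that fell, 24.5%, stands beside 10.2% and 20.7%. The median difference was -0.07 over the carriers, -0.03 over genes with a mean of 7 or more and 0.04 over all genes. In all 44 carriers that passed, the groups did not overlap, but this also held for 102 of the 139 members, for 58.8% of all genes and for 73% of genes with a mean of 7 or more. Of the carriers that fell, SLC7A2, SLC12A8, SLC16A7 and SLC25A30 reached the level of 7 only through the GFP arrays. Their means in the ZNF750-labelled arrays were 6.84, 6.85, 6.95 and 6.79. SLC6A17 and SLC29A2, which did not pass, had GFP means under the level (6.91 and 6.95).

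Scaling and single arrays changed these counts. The share of falls among the calls was 77.3%. Cyclic loess gave 64% (18 rose and 32 fell). Centring each array on its genes with a mean of 7 or more gave 59.2% (20 rose and 29 fell). Of all genes with a mean of 7 or more, 17.9% rose and 19.3% fell after cyclic loess. After centring, 19.8% of them rose and 18.9% fell. The medians on which arrays were centred differed by -0.048 between the groups. With any 1 array left out, a group holds a single array and calls became fewer among all genes as well. The class counts below share this, so a loss of calls is not particular to the carriers. The carriers' median then ran from -0.092 to -0.055, beside -0.049 to -0.019 over genes with a mean of 7 or more. Without GFP replicate 1 or without GFP replicate 2, the only call was the fall of SLC25A3. With ZNF750 replicate 1 left out there were 3 rises and 17 falls, and with ZNF750 replicate 2 left out 4 rises and 10 falls.

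**Figure D1:**
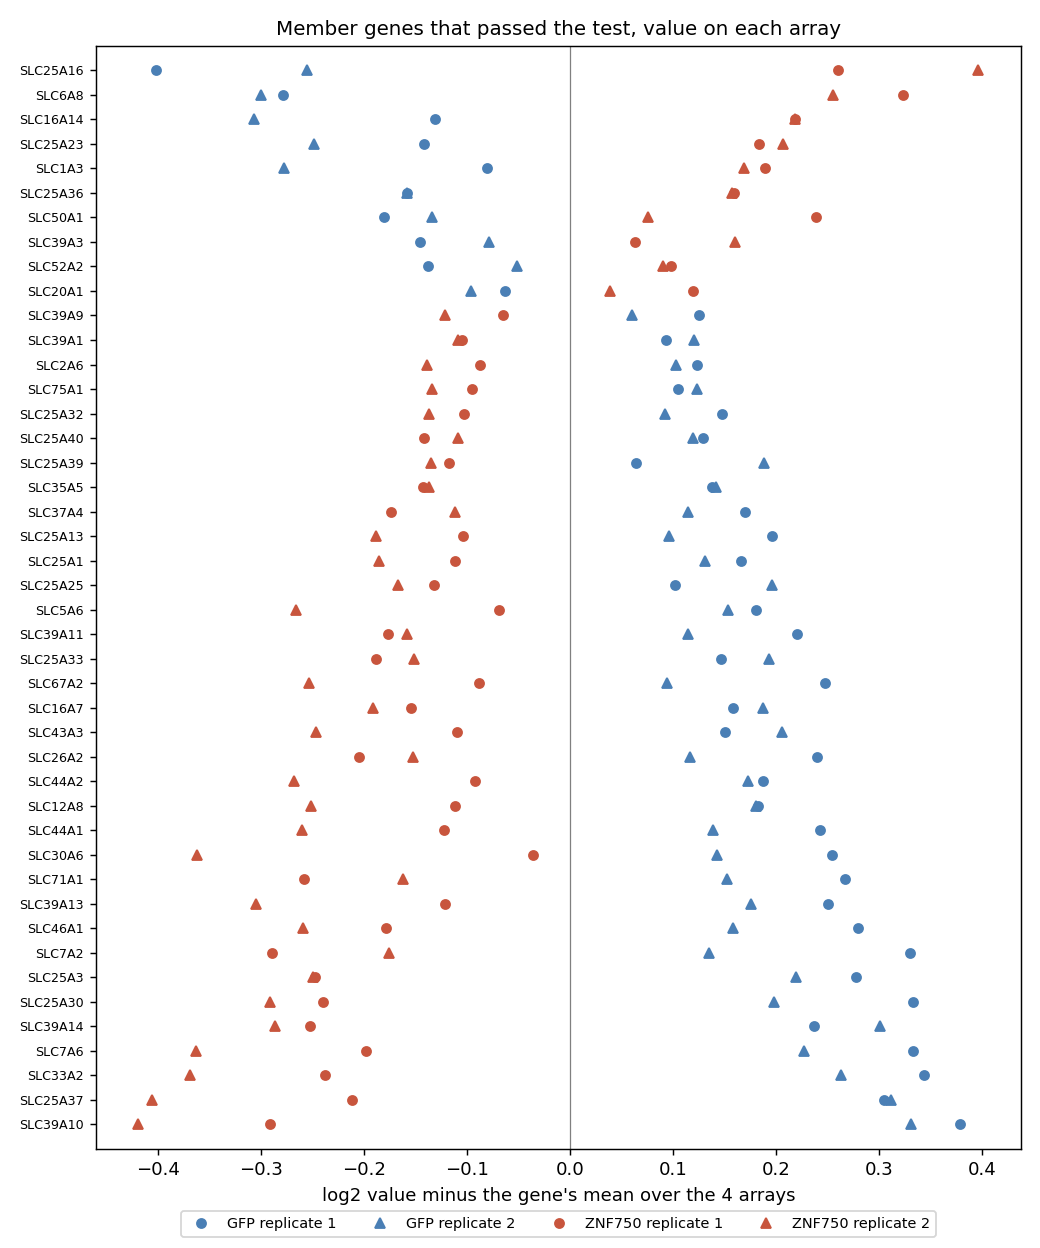
Value of each of the 44 carriers that passed the test on each of the 4 arrays, as the log2 value minus the gene's own mean (x axis), with GFP in blue, ZNF750-labelled in red, circles for replicate 1 and triangles for replicate 2. The 10 genes at the top rose and the 34 below fell, and in each gene both arrays of a group lie on the same side.

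**Figure D2:**
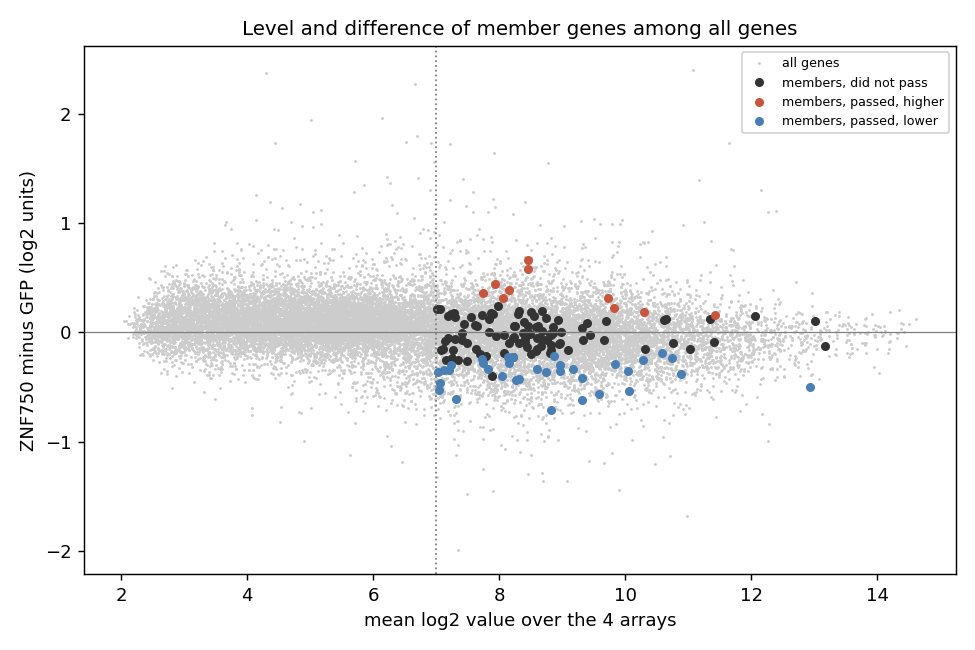
Difference between the groups (y axis, log2 units) against the mean log2 value over the 4 arrays (x axis) for all 19775 genes in grey, with the 139 carriers in colour to the right of the dotted line at 7. The carriers lie between -0.71 and 0.66, inside the range of all genes, which runs from -1.99 to 2.40.

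Most zinc importers measured lower. Of 11 SLC39 members, 6 fell, 1 rose and 4 did not pass, and 10 of the 11 differences were below 0, with a median of -0.19. These shares, 54.5% that fell and 9.09% that rose, stand beside 20.7% and 12% of genes with a mean of 7 or more, and 11 genes are few. Of the 8908 genes with a mean of 7 or more, 5016 had differences below 0, and their median was -0.03 over all 8908. SLC39A10 (ZIP10), a zinc importer of the plasma membrane, had values of 9.21 and 9.16 with GFP and of 8.54 and 8.41 in the ZNF750-labelled arrays. This fall of 0.71 (SE 0.066, adjusted p = 0.000807) was read by its only probe set at that level. SLC39A14 (ZIP14), which takes up zinc, iron and manganese, went from 10.30 and 10.37 to 9.81 and 9.78, a difference of -0.54 ± 0.050 (adjusted p = 0.00077), or -0.35 with the mean of its probe sets, of which the other 2 had means of 5.29 or less. In both genes each ZNF750-labelled array lay below both GFP arrays by more than the arrays of a group differed from each other.

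SLC39A13 (ZIP13), which acts on intracellular membranes, had 8.56 and 8.48 with GFP and 8.19 and 8.004 in the other group (-0.43 ± 0.080), and its second probe set at the level also passed (-0.36). SLC39A11 (-0.33 ± 0.073), SLC39A1, an importer found in most cells (-0.21 ± 0.056), and SLC39A9 (-0.19 ± 0.048) fell by less. The mean of its 4 probe sets turned SLC39A9 to 0.02 (adjusted p = 0.909). For SLC39A6 (ZIP6), which pairs with ZIP10 in the membrane, the brightest probe set gave -0.15 ± 0.045 (adjusted p = 0.0542), which did not pass. It passed with dim genes left out (0.0341) and with the replicate number as a block (0.0366). It did not pass after cyclic loess (-0.09, adjusted p = 0.182), after centring (-0.10, 0.155) or without the intensity trend (0.214). A second SLC39A6 probe set, with values of 7.86 and 7.62 against 7.11 and 7.10, gave -0.63 and passed when all 54613 probe sets were fitted (adjusted p = 0.00782), while averaging the gene's probe sets gave -0.43. SLC39A3 (ZIP3) was the importer that rose, from 9.68 and 9.75 to 9.89 and 9.99 (0.22 ± 0.057), on an s_at probe set, a suffix for probes that can read more than 1 transcript. Without such probe sets it gave 0.10 and did not pass.

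Zinc exporters mostly did not pass. Of 7 SLC30 members, 1 fell and 0 rose (0 also at an unadjusted limma p under 0.05 among rises). The share that fell, 14.3%, stands beside 20.7% of genes with a mean of 7 or more, of which 12% rose. The median difference of -0.02 turned to 0.01 after cyclic loess and 0.03 after centring on brighter genes. SLC30A1 (ZnT1), the exporter of the plasma membrane, had 8.88 and 8.77 with GFP and 8.91 and 8.84 in the other group, which overlap (0.05 ± 0.064). SLC30A6, which forms with SLC30A5 the dimer that loads zinc into the early secretory pathway, fell from 8.31 and 8.19 to 8.02 and 7.69 (-0.40 ± 0.11, adjusted p = 0.0449), but a second probe set gave 0.06. Leaving out ZNF750 replicate 2 moved the fall of SLC30A6 to -0.23, which ended the call (adjusted p = 0.191). The brightest SLC30A5 probe set gave -0.40 ± 0.12 (adjusted p = 0.0654), and 2 others at the level passed in opposite directions, at -0.59 and 0.35. These probe sets do not settle a direction for SLC30A5.

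After cyclic loess and after centring, 4 zinc importers fell and 1 rose, with 9 of 11 differences below 0 and medians of -0.13 and -0.14. With either GFP array left out 0 importers passed, and 3 fell without ZNF750 replicate 1 and 2 without ZNF750 replicate 2. When limma's prior ignored intensity, 2 fell.

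**Figure D3:**
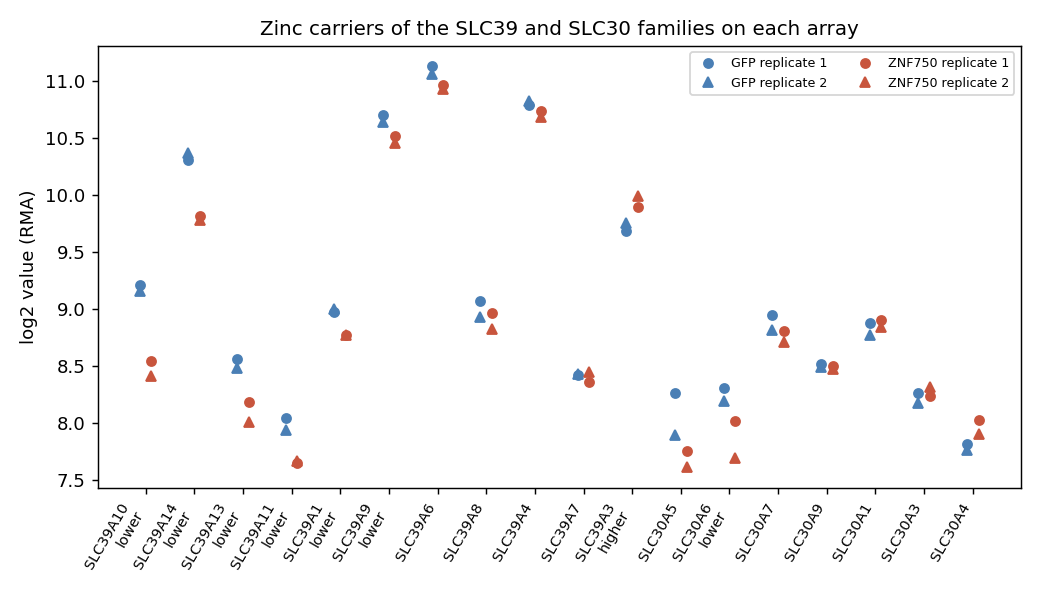
Log2 values (y axis) of the 11 SLC39 importers and 7 SLC30 exporters on each array, GFP in blue and ZNF750-labelled in red, with "lower" or "higher" under the genes that passed. SLC39A10, SLC39A14, SLC39A13 and SLC39A11 show the widest gaps, while SLC30A1 has overlapping groups.

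Other metal carriers did not pass. Together with the zinc carriers, the metal and heme class had 25 members, of which 1 rose and 7 fell. These shares, 4% and 28%, stand beside 12% and 20.7% of genes with a mean of 7 or more. SLC11A2 (DMT1), which takes up ferrous iron, differed by -0.16 ± 0.057 (adjusted p = 0.0932). SLC31A1 (CTR1), the copper importer, differed by -0.05 ± 0.060, SLC41A1, a magnesium carrier, by 0.10 ± 0.057, and SLC48A1, a heme carrier, by 0.16 ± 0.066. With either GFP array left out 0 of the 25 passed, and 4 fell without ZNF750 replicate 1 and 2 without ZNF750 replicate 2.

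Mitochondrial carriers, a class taken as the whole SLC25 family, had the most members. The median of the 32 SLC25 genes was -0.09: 10 fell, 3 rose and 19 did not pass, or 31.2% and 9.38% beside 20.7% and 12% of genes with a mean of 7 or more. SLC25A37 (mitoferrin-1), which brings iron into mitochondria for heme and iron-sulfur clusters, had 9.63 and 9.64 with GFP and 9.11 and 8.92 in the other group, a difference of -0.62 ± 0.072 (adjusted p = 0.00183). All 6 of its probe sets at the level were below 0, from -0.62 to -0.06, and 3 passed. Its paralog SLC25A28 (mitoferrin-2) differed by 0.20 ± 0.066 (adjusted p = 0.0810) and did not pass.

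SLC25A3, the mitochondrial phosphate carrier that feeds ATP synthesis and also carries copper, was at 13.22 and 13.16 with GFP and at 12.69 and 12.69 in the ZNF750-labelled arrays. Its fall of 0.50 (SE 0.035, adjusted p = 0.00028) was the only call of a member that held whichever array was left out, with differences from -0.53 to -0.47. It was read by an s_at probe set, and the brightest probe set without this suffix gave -0.31 and did not pass (adjusted p = 0.183). SLC25A5, an adenine nucleotide translocase, differed by -0.13 ± 0.041 (adjusted p = 0.0756), and its isoform SLC25A4 by 0.08 ± 0.053.

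SLC25A1, the citrate carrier that supplies carbon for lipid synthesis, went from 9.13 and 9.09 to 8.85 and 8.77 (-0.30 ± 0.059), and SLC25A13 (citrin), an aspartate-glutamate carrier, from 10.04 and 9.94 to 9.74 and 9.66 (-0.29 ± 0.058). The other aspartate-glutamate carrier, SLC25A12, differed by -0.09 ± 0.079 with overlapping groups and did not pass, while its second probe set gave -0.59 and passed over all probe sets. SLC25A32, which carries folate or flavin, fell by 0.24 (SE 0.045). The glutathione carrier SLC25A39 (-0.25 ± 0.055) and its paralog SLC25A40 (-0.25 ± 0.070) also fell.

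Some mitochondrial paralogs moved in opposite directions. Of the pyrimidine nucleotide carriers, SLC25A33 fell from 8.74 and 8.79 to 8.41 and 8.45 (-0.34 ± 0.060), whereas SLC25A36 rose from 9.57 on both GFP arrays to 9.89 on both others (0.32 ± 0.048). Of the other SLC25A36 probe sets at the level, 1 passed at 0.44 and 1 gave -0.0022, so they disagreed. Of the calcium-regulated ATP-magnesium/phosphate carriers, SLC25A25 fell (-0.30 ± 0.081) and SLC25A23 rose from 8.01 and 7.91 to 8.34 and 8.36 (0.39 ± 0.070). SLC25A23 gave 0.23 with the mean of probe sets and did not pass (adjusted p = 0.0968). The differences between paralogs were not tested themselves.

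The largest rise of a member, that of SLC25A16, rested on an x_at probe set. Its values were 8.06 and 8.21 with GFP and 8.72 and 8.86 in the other group (0.66 ± 0.079, adjusted p = 0.00204). Its second probe set at the level gave -0.15 and the mean of its probe sets gave 0.02, so the rise was not seen by its other probe sets. SLC25A30, near the level minimum, fell from 7.38 and 7.25 to 6.81 and 6.76 (-0.53 ± 0.087), with -0.03 from the mean of probe sets. Its other 3 probe sets had means of 4.89 or less, so that mean is drawn mostly from dim values.

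After cyclic loess 6 mitochondrial carriers rose and 10 fell, and after centring 6 rose and 8 fell, with medians of -0.06 and -0.04. With the mean of probe sets 0 rose and 9 fell, and without the intensity trend 2 rose and 4 fell. Leaving out GFP replicate 1 or GFP replicate 2 left only the fall of SLC25A3. Leaving out ZNF750 replicate 1 gave 2 rises and 5 falls, and leaving out ZNF750 replicate 2 gave 2 rises and 3 falls.

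Most amino acid carriers did not pass. The median of the 19 members was -0.02; 1 rose, 2 fell and 16 did not pass, shares of 5.26% and 10.5% beside 12% and 20.7% of genes with a mean of 7 or more. SLC7A5 (LAT1), the large neutral amino acid exchanger, was at 12.96 and 12.97 with GFP and 13.10 and 13.04 in the other group (0.10 ± 0.035, adjusted p = 0.0882). SLC38A2 (SNAT2), a sodium-coupled carrier of small neutral amino acids, had 12.04 and 11.94 against 12.17 and 12.11 (0.15 ± 0.046, adjusted p = 0.0607), and its 3 probe sets gave 0.15 to 0.17. Both did not overlap between the groups, which also held for 73% of genes with a mean of 7 or more. Both passed as higher after cyclic loess (0.16 and 0.21), after centring on brighter genes (0.15 and 0.20) and with dim genes left out. Neither passed without the intensity trend, with robust eBayes or with the mean of probe sets. With the replicate number as a block SLC38A2 passed and SLC7A5 did not.

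SLC7A6 (y+LAT2), which exchanges cationic for neutral amino acids, fell from 9.91 and 9.81 to 9.38 and 9.22 (-0.56 ± 0.071, adjusted p = 0.00239). Its other probe sets at the level gave -0.20 and -0.02, neither of which passed, and the mean of all 3 was -0.26. The cationic carrier SLC7A2 fell from 7.40 and 7.20 to 6.78 and 6.89 (-0.47 ± 0.098), with -0.06 from the mean of probe sets, where it did not pass and where the other 2 probe sets had means of 4.19 or less. SLC7A1 (CAT1), another cationic carrier, had 11.27 and 11.30 with GFP and 11.44 and 11.38 in the other group, and differed by 0.12 ± 0.042 and did not pass. SLC1A3 (EAAT1), a glutamate carrier, was the member that rose, from 7.66 and 7.46 to 7.93 and 7.91 (0.36 ± 0.086). It gave 0.29 with the mean of probe sets, where it did not pass (adjusted p = 0.0921).

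SLC1A5 (ASCT2), a glutamine carrier, differed by -0.16 ± 0.060 (adjusted p = 0.121) and SLC38A1, a glutamine carrier of the plasma membrane, by -0.09 ± 0.063. The lysosomal arginine sensor SLC38A9 differed by -0.03 ± 0.068 and the lysosomal exporter SLC36A1 by -0.02 ± 0.056. Without GFP replicate 1 or GFP replicate 2, 0 amino acid carriers passed, and without ZNF750 replicate 1 or ZNF750 replicate 2, 0 rose and 1 fell. After cyclic loess and after centring 4 rose and 2 fell.

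Vitamin and cofactor carriers had 3 falls and 1 rise among 8 members and a median of -0.21, with 7 of 8 differences below 0. These shares, 37.5% that fell and 12.5% that rose, stand beside 20.7% and 12% of genes with a mean of 7 or more. Such a class of 8 genes is small, and 5016 of the 8908 genes with a mean of 7 or more also had differences below 0. SLC46A1 (PCFT), the proton-coupled folate carrier, fell from 8.55 and 8.43 to 8.10 and 8.01 (-0.44 ± 0.073, adjusted p = 0.00661), and its other probe sets at the level gave -0.24 and -0.34. SLC19A1, the reduced folate carrier, differed by -0.13 ± 0.064 on its brightest probe set (adjusted p = 0.226), by -0.0055 on the second and by -0.43 on the third, which passed over all probe sets. SLC5A6, which carries biotin and pantothenate, fell from 9.35 and 9.32 to 9.10 and 8.90 (-0.33 ± 0.074).

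SLC33A2, formerly MFSD3 and placed in this class by its family number, fell from 7.66 and 7.58 to 7.08 and 6.95 (-0.61 ± 0.085, adjusted p = 0.0034). SLC52A2, a riboflavin carrier, rose from 10.16 and 10.25 to 10.40 and 10.39 (0.19 ± 0.050) on an x_at probe set, and another probe set gave -0.09. The thiamine carrier SLC19A2 (-0.22 ± 0.073) and the ascorbate carrier SLC23A2 (-0.20 ± 0.066) did not pass. With either GFP array left out 0 members of the class passed, and 3 fell without ZNF750 replicate 1 and 1 without ZNF750 replicate 2.

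The choline carriers SLC44A1 and SLC44A2 fell, SLC44A3 differed by 0.12 ± 0.074 and did not pass, and fatty acid carriers did not pass. Of 9 members of the lipid, bile acid and choline class, 0 rose (0 also at an unadjusted limma p under 0.05 among rises) and 2 fell. The share that fell, 22.2%, stands beside 20.7% of genes with a mean of 7 or more, of which 12% rose. SLC44A1 (CTL1), which supplies choline for phosphatidylcholine, had 11.13 and 11.03 with GFP and 10.77 and 10.63 in the other group (-0.38 ± 0.060, adjusted p = 0.00531), but its second probe set at the level gave -0.12 and did not pass. SLC44A2 fell from 8.93 and 8.92 to 8.65 and 8.48 (-0.36 ± 0.073), and its second probe set passed at -0.42. The fatty acid carriers SLC27A4 (-0.19 ± 0.057, adjusted p = 0.0601) and SLC27A3 (-0.26 ± 0.087) did not pass, nor did SLC27A1 (0.18 ± 0.085). With either GFP array left out 0 of the 9 passed, and 2 fell without ZNF750 replicate 1 and 1 without ZNF750 replicate 2.

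Most carriers of inorganic ions did not pass. Of 13 members, 1 rose and 2 fell, or 7.69% and 15.4% beside 12% and 20.7% of genes with a mean of 7 or more. SLC26A2, the sulfate carrier needed to sulfate proteoglycans, fell from 9.21 and 9.09 to 8.77 and 8.82 (-0.36 ± 0.065, adjusted p = 0.00913), and its second probe set passed at -0.58. SLC12A8 fell from 7.21 on both GFP arrays to 6.92 and 6.78 (-0.36 ± 0.087). SLC20A1 (PiT-1), a sodium-phosphate carrier, rose from 11.36 and 11.32 to 11.54 and 11.46 (0.16 ± 0.044, adjusted p = 0.0455). In the limma fit over all probe sets its second probe set gave 0.43 and passed, but the brightest did not (adjusted p = 0.0653). The chloride loader SLC12A2 (NKCC1) differed by -0.15 ± 0.071, the anion exchanger SLC4A2 by -0.24 ± 0.077 and the bicarbonate carrier SLC4A7 by -0.19 ± 0.079, and these did not pass. The mean of the SLC12A2 probe sets gave -0.30 and passed (adjusted p = 0.0259), since a second, dimmer one gave -0.46 and passed over all probe sets. With either GFP array left out 0 of the 13 passed, 0 also passed without ZNF750 replicate 1, and 1 fell without ZNF750 replicate 2.

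The creatine carrier SLC6A8 had the second largest rise of a member. Its values were 8.19 and 8.16 with GFP and 8.79 and 8.72 in the ZNF750-labelled arrays (0.58 ± 0.063, adjusted p = 0.00138), a gap well beyond the spread within either group. Its x_at probe sets, a suffix for probes that can read other genes, gave 0.16 and 0.23 and did not pass, and the mean of its probe sets gave 0.32 and passed (adjusted p = 0.00907). SLC16A14, a carrier of the monocarboxylate family, rose from 7.80 and 7.62 to 8.15 on both others (0.44 ± 0.080). SLC71A1 (formerly MFSD14A) fell from 9.59 and 9.47 to 9.06 and 9.16 (-0.42 ± 0.065), while its paralog SLC71A2 differed by 0.12 ± 0.042 and did not pass (adjusted p = 0.1004). SLC71A2 passed as higher after cyclic loess (0.18) and after centring (0.17), and averaging it with its other probe set, whose mean was 3.93, turned it to -0.04. The other falls of the class were SLC67A2 (-0.34 ± 0.096) and SLC75A1 (-0.23 ± 0.065), whose adjusted p-values were 0.0475 and 0.0482. The taurine carrier SLC6A6 differed by -0.0041 ± 0.079. Of this class 12.5% rose and 18.8% fell, beside 12% and 20.7% of genes with a mean of 7 or more. Of the 16 members of this mixed class 2 rose and 3 fell; 0 passed without GFP replicate 1 or GFP replicate 2, and leaving out ZNF750 replicate 1 or ZNF750 replicate 2 gave 1 rise and 1 fall.

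Of 8 sugar carriers, 1 rose and 2 fell, or 12.5% and 25% beside 12% and 20.7% of genes with a mean of 7 or more. SLC37A4, which brings glucose 6-phosphate into the endoplasmic reticulum, fell from 8.33 and 8.27 to 7.98 and 8.04 (-0.29 ± 0.067), and gave -0.19 with the mean of probe sets, where it did not pass. SLC2A6 (GLUT6) fell by 0.23 (SE 0.064, adjusted p = 0.0493). SLC50A1 (SWEET1) rose from 7.88 and 7.92 to 8.30 and 8.13 (0.31 ± 0.078), and the inositol carrier SLC5A3 differed by 0.01 ± 0.081. Leaving out GFP replicate 1, GFP replicate 2 or ZNF750 replicate 1 left 0 sugar carriers, and leaving out ZNF750 replicate 2 left 1 rise.

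The remaining classes were small. SLC43A3, a purine nucleobase carrier, fell from 10.20 and 10.25 to 9.94 and 9.80 (-0.36 ± 0.060, adjusted p = 0.00683), and its second probe set gave -0.67 and passed. The nucleoside carrier SLC29A1 (ENT1) differed by 0.14 ± 0.080. Of 5 nucleotide sugar carriers, all of the SLC35A form, SLC35A5 fell (-0.28 ± 0.069), a share of 20% beside 20.7% of genes with a mean of 7 or more. SLC35A4 (-0.16 ± 0.073) and the UDP-galactose carrier SLC35A2 (-0.02 ± 0.052) did not pass. SLC16A7 (MCT2), a pyruvate and lactate carrier and the only member of its class, fell from 7.28 and 7.31 to 6.97 and 6.93 (-0.35 ± 0.079). Its 4 other probe sets, all under the level, gave -0.30 to 0.46 and none passed, and the mean of all 5 turned SLC16A7 to 0.08 (adjusted p = 0.62). In these 3 classes 1 carrier fell without ZNF750 replicate 1, and 0 passed without GFP replicate 1, GFP replicate 2 or ZNF750 replicate 2.

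**Figure D4:**
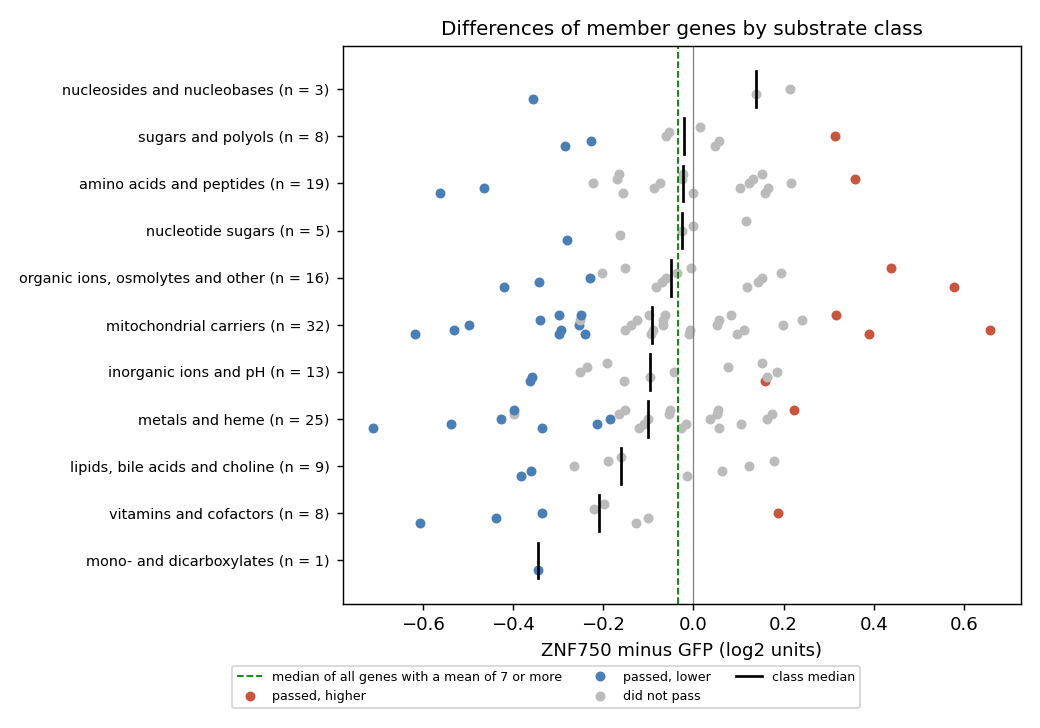
Differences of the 139 carriers (x axis, ZNF750-labelled minus GFP in log2 units) by substrate class (y axis), with red for genes that rose, blue for genes that fell, grey for genes that did not pass, and black bars for class medians. Falls outnumber rises in the metal (7 to 1) and mitochondrial (10 to 3) classes, in most other classes and among all genes with a mean of 7 or more (1843 to 1065). The dashed line is the median of all genes with a mean of 7 or more (-0.03).

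Probe sets of a gene often gave different sizes. Of the 139 members, 43 had more than 1 probe set at the level, and in 32 of these all such probe sets lay on the same side of 0. Among the 14 of them that passed, this held for 10. These 14 had 22 further probe sets at the level, of which 18 had the sign of the brightest one, 8 passed with it and 0 passed against it. Over all 195 probe sets of the members, 10 rose and 40 fell in the fit over all probe sets. Of probe sets with 1 symbol and a mean of 7 or more, 8.83% rose and 19.3% fell (28.2% either way), and of all probe sets 4.3% rose and 7.19% fell (11.5% either way).

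**Figure D5:**
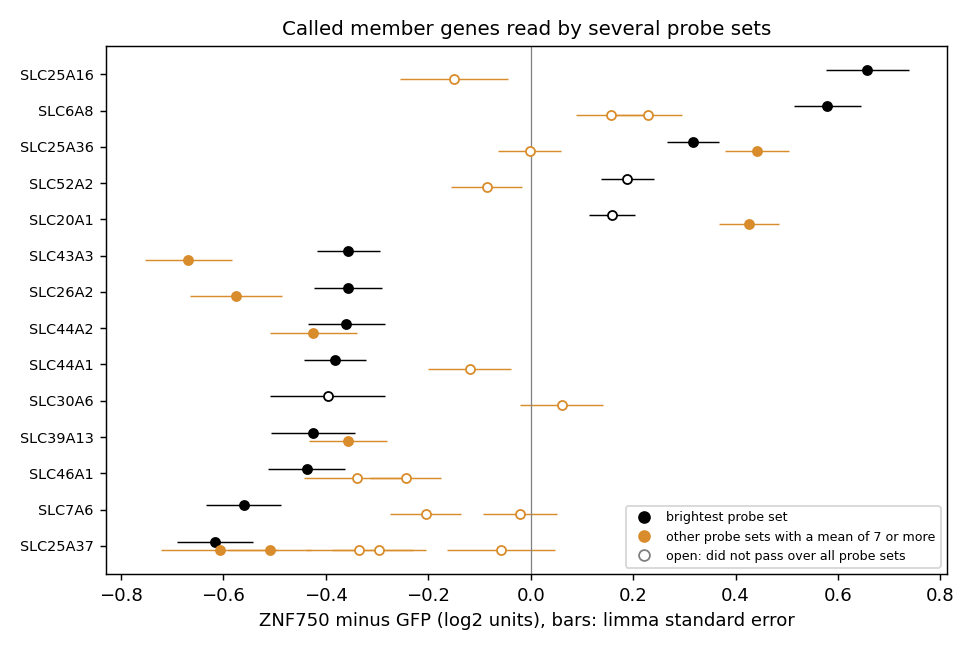
Differences (x axis, log2 units, bars for limma's standard error) of the 14 genes that passed and had several probe sets with a mean of 7 or more, the brightest in black and the others in orange, open where the probe set did not pass over all probe sets. SLC25A37, SLC43A3 and SLC26A2 lie on the same side throughout, whereas the probe sets of SLC25A16, SLC25A36, SLC52A2 and SLC30A6 fall on both sides of 0.

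The 174 solute carrier genes with symbols of the rule's form that lay under the level gave few calls. Of them 7 rose (4.02%) and 1 fell (0.575%), beside 4.38% and 1.56% of all genes with a mean under 7 (5.94% either way). The 1 that fell was SLC22A4, just under the level, from 7.47 and 7.23 to 6.76 and 6.43 (-0.76 ± 0.13).

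Genes that work with the carriers moved in both directions. Their lists hold 9 to 14 genes at all levels, and their counts stand beside 7.79% that rose and 10.2% that fell of all genes and 12% and 20.7% of genes with a mean of 7 or more. Of 9 subunits and FXYD regulators of the sodium pump, which makes the sodium gradient, FXYD3 rose from 10.01 and 10.08 to 10.66 and 10.62 (0.60 ± 0.049, adjusted p = 0.000535) and FXYD5 fell (-0.27 ± 0.055), while the beta subunits ATP1B1 (-0.06) and ATP1B3 (0.08) did not pass. Of this list 0 passed without GFP replicate 1, there was 1 rise without GFP replicate 2 or ZNF750 replicate 1, and leaving out ZNF750 replicate 2 gave 1 rise and 1 fall. Of 14 chaperones, scaffolds and trafficking partners, 3 rose and 3 fell (21.4% each). These included CLTRN, which escorts amino acid carriers to the membrane (0.39 ± 0.11), SGK1, a kinase that raises carrier abundance (0.29 ± 0.056), and OSTM1, a partner of a lysosomal chloride carrier (-0.39 ± 0.070). BSG (basigin), the chaperone of lactate carriers, differed by 0.17 and did not pass (adjusted p = 0.105). Without GFP replicate 1 or GFP replicate 2 none of the 14 partners passed; 1 fell without ZNF750 replicate 1 and 2 rose without ZNF750 replicate 2.

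Of 10 kinases and regulators of cation-chloride cotransport, 0 rose (0 also at an unadjusted limma p under 0.05 among rises) and 2 fell, the kinase STK39 (-0.36 ± 0.10) and CUL3, a ubiquitin ligase subunit (-0.28 ± 0.079). Of 14 genes of lysosomal amino acid sensing, 1 rose and 3 fell: the leucine sensor SESN2 rose from 7.93 and 8.16 to 8.52 and 8.54 (0.48 ± 0.088), and MTOR (-0.41 ± 0.090), RRAGA (-0.33 ± 0.061) and LAMTOR2 (-0.19 ± 0.053) fell. Of 11 SLCO organic anion carriers, which the naming rule does not take, SLCO4A1 rose (0.39 ± 0.089), as did SLCO1C1 (0.57 ± 0.11), whose GFP values of 2.73 and 2.76 lay near the lowest of the arrays. Without GFP replicate 1, GFP replicate 2 or ZNF750 replicate 2, 0 genes of these 3 lists passed, and without ZNF750 replicate 1, 2 of the kinases list and 3 of the sensing list fell and 1 SLCO gene rose.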

How the data were processed

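The authors deposited log2 values, a row per probe set and a column per array; per the submitters' processing notes they come from RMA (background correction, quantile normalization, summary on the log2 scale), whose version is not stated there. RMA understates differences of dim genes, and detection calls were not used. Precision is limited by the 4 arrays.

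Of 54675 probe sets, 62 controls were left out of the tests and 41091 others had 1 symbol (platform annotation; all 139 members matched RefSeq). The probe set with the highest mean represented each of the 19775 genes. limma 3.58.1 (R 4.3.3) compared the groups by lmFit and eBayes with trend (2 residual degrees of freedom) and Benjamini-Hochberg adjustment over all genes; an adjusted p under 0.05 was called. The fit was tested on simulated data. An exact permutation test of 2 against 2 arrays cannot go below 0.333. Alternatives changed the variance prior, filters, probe set choice, scaling, a replicate block and the arrays included.

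Members, lists and classes (by SLC family, several families being split by substrate) were chosen with earlier results of these data known. Named members were the 12 largest rises and falls that passed without overlap (10 rises existed), the 2 largest differences and the brightest member per class of 4 or more, those nearest the level, those with opposed probe sets, a few fixed by name and, per list, the 3 largest that passed; others were named for their role after values were seen.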

Additional observations from a re-analysis of the deposited data

How the results depend on the processing

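Of the 44 carriers that passed, 44 passed in the same direction with robust eBayes, with dim genes left out and with the replicate number as a block, 40 after cyclic loess, 38 after centring on brighter genes, 28 with the mean of probe sets, 15 without the intensity trend, and 24 of the 34 that could be measured without x_at and s_at probe sets. Rises numbered 4 without the intensity trend, 4 with the mean of probe sets, 3 without x_at and s_at probe sets, 18 after cyclic loess, 20 after centring, 5 at an adjusted p under 0.01 and 2 at a difference of at least 0.5, and falls numbered 11 without the trend, 22 without x_at and s_at probe sets, 13 at 0.01 and 6 at 0.5. Both counts are lower at the stricter thresholds by construction, and fewer genes could be measured without x_at and s_at probe sets; the cause of the other moves was not tested. Leaving out each array in turn gave 0 to 4 rises, 1 to 17 falls and a median from -0.092 to -0.055, where the lone array of a group is assumed to vary like the others. The median was -0.043 after cyclic loess, -0.022 after centring and -0.025 with a level minimum of 6. Without x_at and s_at probe sets SLC25A36 gave -0.0022 and SLC25A16 gave -0.15. Averaging probe sets turned the falls of SLC16A7 and SLC39A9 to 0.08 and 0.02. With the replicate number as a block, 11 carriers rose and 38 fell. The sources used here do not say what a replicate number marks. Deviations of same-numbered arrays correlated at 0.161 across genes, but 2 pairs are too few to decide whether the arrays were paired. The block changed no call of a named member that had passed.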
